A study of Mus musculus with 8 samples.

Results

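Cytosolic ribosomal protein genes code for the proteins that, with the ribosomal RNAs, build the 2 subunits of the ribosome of the cytoplasm. The genes were taken by symbol, as Rpl or Rps followed by a number and at most the letter a, x, y or l, with Rplp0, Rplp1, Rplp2 and Rpsa added. This gave 81 of the 24328 gene symbols, 49 for the large and 32 for the small subunit. Of these, 78 reached 1 FPKM (fragments per kilobase of transcript, scaled to the sequencing yield) in at least 2 libraries, and 76 had a mean of at least 10 FPKM over all 8 libraries, here called abundant. Rpl10l, Rpl39l and Rpl3l did not reach the level for testing.

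RNA had been sequenced from muscle stem cells (satellite cells) of C57BL/6 mice aged 2 months, in 4 groups of 2 libraries. PFA-perfused cells came from Pax7-nGFP mice, which carry a nuclear green reporter under Pax7, perfused with the fixative paraformaldehyde before the muscle was dissociated. PBS-perfused cells came from Pax7-nGFP mice perfused with buffer alone. Unperfused cells came from wild type mice whose vessels had not been flushed. Injury-activated cells were taken in the same way from wild type mice 2.5 days after muscle injury. The sort kept cells with Vcam on their surface and left out cells with CD31, Sca-1 or CD45. RNA of the fixed cells was purified with an FFPE kit and that of unfixed cells with an RNA XS kit, so fixation and kit cannot be told apart, and genotype goes with perfusion. Nothing in the labels ties the 2 libraries of a group to different animals. The p-values rest on the spread between libraries of a group, pooled over the 4 groups and moderated across genes. In a later fit, on levels relative to the median member of each library, a gene's own spread does not enter its p-value. There the spread was set from all genes of like level. The spread between libraries may be technical.

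Each ribosome takes up most of its proteins as single copies, so a cell needs them in near equal supply. Their mRNAs usually begin with an uninterrupted run of pyrimidines, the terminal oligopyrimidine (TOP) motif, through which mTORC1 and the RNA-binding protein Larp1 adjust translation to growth signals. Quiescent satellite cells are small cells with little cytoplasm, and they enlarge and make more ribosomes when they are activated by injury.

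The start of 4 member genes shows what the TOP motif looks like. Each window holds 50 bases before and 15 bases from the annotated start on GRCm38.p6, as given by RefSeq, and the pyrimidine run at the start is in capitals. Rpl7a (chr2:26910757-26910821, plus strand), Rpl14 (chr9:120571467-120571531, plus strand) and the second annotated start of Rpl35a (chr16:33056432-33056496, plus strand) carry runs of 21, 14 and 13 bases. Each of these runs holds the annotated start base but begins before it. The run lengths are thus those of the DNA and not of a pyrimidine run in the mRNA. Rps25 (chr9:44407664-44407728, plus strand), whose level departed most from the other members in unperfused cells, has no run of at least 5 pyrimidines within 5 bases of its annotated start. Its window does hold a long pyrimidine run further before that start, left in lower case. Whether Rps25 counts as having the motif thus depends on the annotated position and on the 5 bases allowed.
Rpl7a: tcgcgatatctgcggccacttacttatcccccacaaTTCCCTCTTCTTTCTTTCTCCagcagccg
Rpl14: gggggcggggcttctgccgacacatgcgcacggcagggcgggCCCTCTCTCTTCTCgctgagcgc
Rpl35a: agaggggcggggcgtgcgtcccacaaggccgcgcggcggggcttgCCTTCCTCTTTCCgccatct
Rps25: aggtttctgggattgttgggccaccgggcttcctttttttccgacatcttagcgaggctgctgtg

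RefSeq starts were found for 60 of the 81 genes. A run of at least 5 C or T reaching within 5 bases of an annotated start was present in 34 of these (56.7%), against 36.7% of all genes in that table. Such a run need not hold the start base, and some ended before it, as in Rps27 and Rps18. The shares are therefore not those of mRNAs that begin with pyrimidines. In the 250 bases before the start, on both strands, CCGGAAG, the core letters bound by ETS factors such as Gabpa, was found in 18 members (30.0% against 7.83% of all genes). TATAAA was found in 3 (5.0% against 14.3%), AAGATGGC in 3 (5.0% against 1.83%) and the E-box CACGTG in 5 (8.33% against 6.86%). CCGGAAG ends with the AAG that AAGATGGC begins with, so these can overlap, and the pyrimidine run was counted apart from the others. These matches describe letters in the windows and not binding.

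The depth of each library is unknown, because the values are FPKM and not counts. Libraries of a group correlated at r = 0.972 to 0.997 across genes. Pax7, which marks satellite cells, was at 328 and 567 FPKM in the PFA-perfused pair, 48.3 and 79.6 in the PBS-perfused pair, 19.8 and 20.4 in the unperfused pair and 4.59 and 4.4 in the injury-activated pair. All 10 satellite cell markers were above 0 in every library. Their sum was 30097 and 43480.3 FPKM in the unperfused libraries and 1455 to 4528 in the others, most of the former from Sdc4, at 28149 and 40318 FPKM. The 6 endothelial markers summed to 123 and 83.1 FPKM in the PBS-perfused libraries and 1.84 to 9.20 elsewhere, with 1 of them at 0 in 1 injury-activated library. The 6 myofibre markers summed to 201 and 159 FPKM in the injury-activated libraries and 18 to 44.1 elsewhere. Most of the injury-activated sum came from Acta1, at 133 and 93.9 FPKM, and Tnnt3, at 60.2 and 58.6. Mylpf was also higher there, whereas Ckm, Myh1 and Myh4 overlapped the other libraries. Those of fibro-adipogenic cells summed to 59.5 to 650.4 and the haematopoietic ones, of which up to 2 were at 0, to 6.54 to 66.3. Dpt made up most of the fibro-adipogenic sum in the PFA-perfused libraries, at 633 and 318 FPKM, and in the unperfused ones, at 474 and 456. By contrast, Pdgfra, Dcn, Ly6a and Lum were higher in all PBS-perfused and injury-activated libraries than in the others. Col1a1 was highest in the PBS-perfused pair. The part of such cells in the results was not tested. Ribosomal RNA precursor (Rn45s) and the nuclear RNA Malat1 took unequal shares of the libraries.

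Ribosomal protein mRNA made up a large share of the RNA in PFA-perfused and injury-activated cells and a smaller share in unperfused cells. The 81 genes summed to 12.7 and 13.8 in the PFA-perfused pair, 5.64 and 8.80 in the PBS-perfused pair, 5.70 and 3.51 in the unperfused pair and 13.5 and 14.3 in the injury-activated pair, as percent of the total FPKM of each library. The group means were 13.2% ± 0.722, 7.22% ± 2.23, 4.61% ± 1.55 and 13.9% ± 0.544 (SD, n = 2). Both PFA-perfused and both injury-activated libraries lay above all PBS-perfused and unperfused libraries. Unperfused replicate 1 lay within the range of the PBS-perfused pair, so these groups overlapped.

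The order of the high groups depended on what was counted in the total. Rn45s took 9.80 and 19.4 in the PFA-perfused pair, 0.893 and 6.64 in the PBS-perfused pair, 0.0285 and 0.0266 in the unperfused pair and 0.356 and 0.363 in the injury-activated pair, as percent of the total FPKM. Malat1 took 7.43 and 6.86 in the PFA-perfused pair, 6.71 and 7.38 in the PBS-perfused pair, 1.25 and 1.16 in the unperfused pair and 0.0796 and 0.0665 in the injury-activated pair. With both left out, the members' share was 15.4 and 18.6 in the PFA-perfused pair, 6.10 and 10.2 in the PBS-perfused pair, 5.78 and 3.56 in the unperfused pair and 13.6 and 14.3 in the injury-activated pair. The PFA-perfused libraries then lay above the injury-activated ones, whereas with all genes counted the PFA-perfused values lay below or within the range of the injury-activated pair.

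The typical member followed the same pattern. The median of the 76 abundant members was 721 and 731 FPKM in the PFA-perfused pair, 273 and 483 in the PBS-perfused pair, 204 and 103 in the unperfused pair and 737 and 787 in the injury-activated pair. Among all genes of a library this median would rank at place 77 and 69 in the PFA-perfused pair, 309 and 153 in the PBS-perfused pair, 384 and 670 in the unperfused pair and 126 and 119 in the injury-activated pair. The number of members among the 100 highest genes was 44 and 51 in the PFA-perfused pair, 11 and 22 in the PBS-perfused pair, 11 and 7 in the unperfused pair and 31 and 33 in the injury-activated pair. Rplp0, the scaffold of the P stalk that recruits elongation factors, was the highest member in 7 of the 8 libraries. In unperfused replicate 2 it stood behind Rps25.

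**Figure D1:**
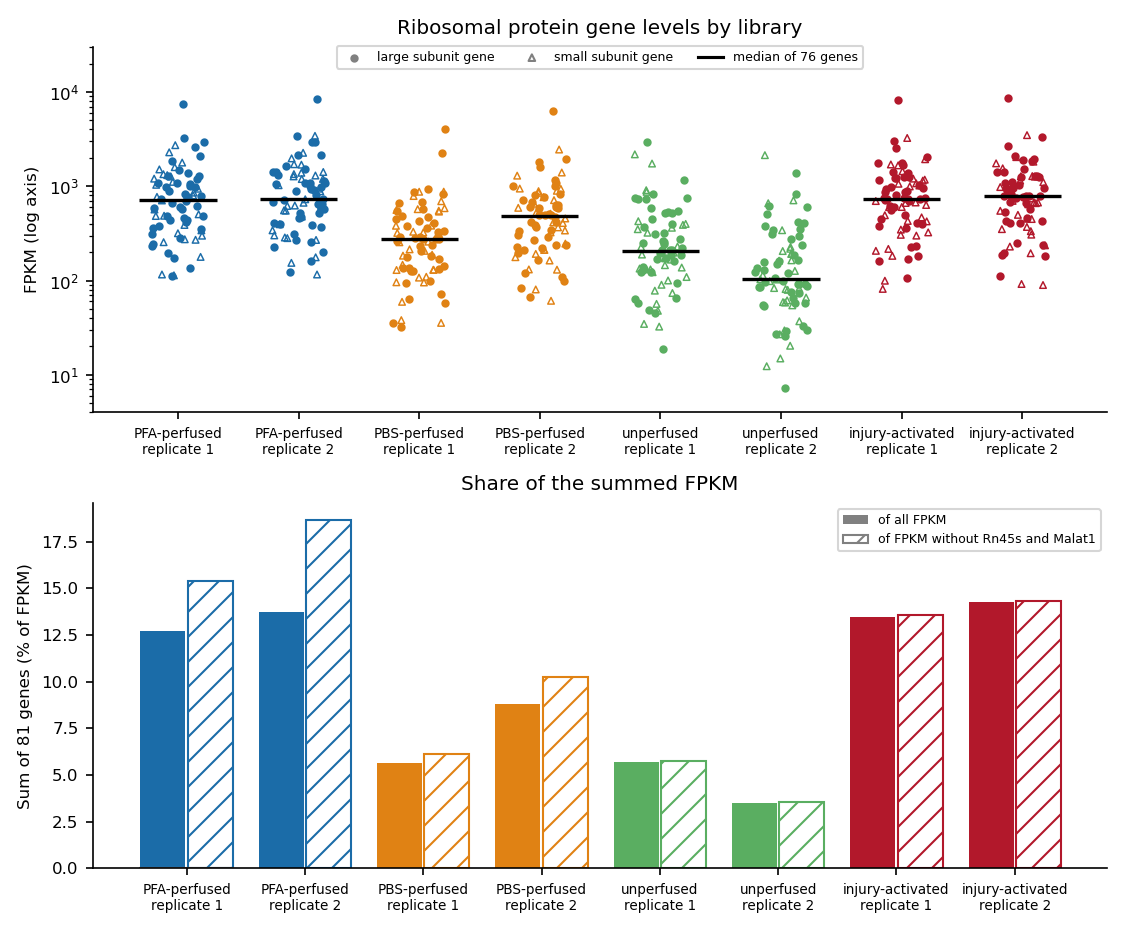
Levels of the 76 abundant ribosomal protein genes in each library (upper panel, FPKM on a log axis, circles for the large and triangles for the small subunit, black line for the median) and the summed share of all 81 genes (lower panel, percent of FPKM, filled bars of all FPKM and hatched bars without Rn45s and Malat1). The medians run from 103 FPKM in unperfused replicate 2 to 787 in injury-activated replicate 2, and the hatched bars exceed the filled ones most in the PFA-perfused libraries.

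The summed FPKM of the large subunit genes was 1.74 and 1.71 in the PFA-perfused pair, 1.94 and 1.73 in the PBS-perfused pair, 1.6 and 1.49 in the unperfused pair and 1.90 and 1.91 in the injury-activated pair, as a ratio to the sum of the small subunit genes. The unperfused libraries were lowest. Without Rps25 and Rps27, which were left out after their values had been seen, the ratio was 1.91 and 1.88 in the PFA-perfused pair, 2.19 and 1.93 in the PBS-perfused pair, 2.02 and 2.22 in the unperfused pair and 2.00 and 2.00 in the injury-activated pair, and the unperfused libraries were no longer lowest. By group mean, 40 of the 76 abundant members were highest in injury-activated cells, 35 in PFA-perfused cells and Rps25 alone in unperfused cells. The lowest mean was in unperfused cells for 71 members and in PBS-perfused cells for 5.

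The comparison of PBS-perfused with PFA-perfused cells asks what differs between cells taken from buffer-perfused muscle and cells fixed in place. In the values as deposited, ribosomal protein mRNA was lower in PBS-perfused cells. Of the 78 members tested, 52 were lower and none higher (65 and 0 at an unadjusted p under 0.05), with a median log2 fold change of -1.09 on the log2(FPKM + 1) scale, beside a median of -0.50 over all tested genes. Of all 12515 tested genes, 46.2% were lower and 17.8% higher (limma, Benjamini-Hochberg adjusted p under 0.05). The libraries of the 2 groups did not overlap for 77 members, all below, against 56.2% of all genes below and 23.8% above. Because the median of all genes shifted, each comparison is also given after scaling by the trimmed mean of ratios, which brought the median of all tested genes to -0.02 here. Scaled this way, 3 members were lower and none higher (10 and 0 at an unadjusted p under 0.05), with a median of -0.49, against 26.4% and 28.1% of all genes. The scaled share of lower members was 3.85%, below that of all genes. With GC content and transcript length removed instead, it was 37.2%, also below the 46.3% of all genes.

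Rpl22, an RNA-binding protein of the large subunit that T cell development requires, Rpl36a and Rpsa, the laminin receptor precursor on the small subunit, were the 3 members lower under both scalings. Rpl22 was at 246 and 257 FPKM in PFA-perfused cells, 63.1 and 99.4 in PBS-perfused, 48.5 and 33.2 in unperfused and 182 and 194 in injury-activated cells. Its log2 fold change was -1.65 (limma, SE 0.29, adjusted p = 9.9e-04) unscaled and -1.04 (limma, SE 0.25, adjusted p = 0.0067) scaled. Rpsa was at 56.5 and 29.6 FPKM in unperfused and 299.6 and 307 in injury-activated cells, beside 114 and 154 in PFA-perfused and 38 and 61 in PBS-perfused cells, with -1.44 (limma, SE 0.35, adjusted p = 0.0061) and -0.83 (limma, SE 0.30, adjusted p = 0.045). Rpl36a, which lies near the exit site of transfer RNA, changed by -1.70 (limma, SE 0.42, adjusted p = 0.0065) and -1.09 (limma, SE 0.37, adjusted p = 0.034). For all 3 genes the lower PFA-perfused library exceeded the higher PBS-perfused one.

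Among the other members the largest falls were those of Rps20 (-1.70, adjusted p = 0.0096), a protein of the small subunit head, Rpl39 (-1.64, adjusted p = 0.0098), which lines the exit tunnel of the nascent chain, and Rps4l (-1.61, adjusted p = 0.011), an Rps4x-like gene, all by limma. Of the 4 stalk genes 3 were lower, of the 8 exit tunnel genes 2, and of the 11 genes of the small subunit head 7. These counts stand beside 46.2% of all tested genes and 66.7% of the members. Whether a role differed from the other members was not tested. The highest fold changes were those of Rpl26, at -0.06 (limma, SE 0.22, adjusted p = 0.82), Rps27l, at -0.41 (limma, SE 0.30, adjusted p = 0.25), and Rpl35, at -0.55 (limma, SE 0.39, adjusted p = 0.23), which did not pass the test. The count moved with single libraries, down with those named here and up with another left out. Of the 78 members, 14 were lower without PFA-perfused replicate 1, 6 without replicate 2, 5 without PBS-perfused replicate 1 and 10 with no filter on low values. Quantile normalization moved the count the other way, to 75 lower with a median of -1.32, against 32.8% of all genes lower and a median of -0.15. With 1 of the injury-activated libraries left out, whichever it was, 32 were lower.

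Unperfused cells against PFA-perfused cells gave the largest falls. Of the 78 members, 72 were lower and 1, Rps25, was higher, with a median log2 fold change of -2.14 beside -0.81 over all tested genes. Of all tested genes 56.3% were lower and 17.4% higher (limma, Benjamini-Hochberg). The libraries did not overlap for 75 members below and 1 above, against 63.2% and 22.4% of all genes. With trimmed mean scaling, 45 members were lower and 3 higher, with a median of -0.97 beside 0.03, against 32.6% and 35.3% of all genes. The 3 higher ones were then Rps25, Rpl7a and Rpl5, of which Rpl7a and Rpl5 did not pass the unscaled test.

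Rps25, a protein of the small subunit head needed for initiation at some internal ribosome entry sites, was at 707 and 727 FPKM after PFA perfusion, 382 and 590.2 after PBS perfusion, 2179 and 2137 without perfusion and 1074 and 1149 after injury. Both unperfused libraries were above all others, by a log2 fold change of 1.59 (limma, SE 0.31, adjusted p = 0.0014) over the PFA-perfused and 2.18 (limma, SE 0.31, adjusted p = 4.8e-04) over the PBS-perfused pair. Of the 4 genes of mRNA entry and decoding, Rps2 fell furthest: it was at 2726 and 3423 FPKM in the PFA-perfused pair, 874 and 2452 in the PBS-perfused pair, 229 and 162 in the unperfused pair and 1019 and 980.2 in the injury-activated pair, with -3.98 (limma, SE 0.47, adjusted p = 5.7e-05). Rps3, which with Rps2 forms the entry channel for mRNA, was at 1271 and 1272 FPKM in PFA-perfused cells, 694 and 945 in PBS-perfused, 908 and 660.4 in unperfused and 1665 and 1749 in injury-activated cells and did not pass the test, at -0.71 (limma, SE 0.32, adjusted p = 0.069).

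After Rps27 the lowest fold change was that of Rpl37a. This zinc-binding protein of the large subunit was at 188 and 64.5 FPKM in unperfused and 1237 and 1418 in injury-activated cells, beside 1851 and 2122 in PFA-perfused and 477 and 998 in PBS-perfused cells, with -4.16 (limma, SE 0.52, adjusted p = 7.9e-05). Rpl36 was at 1382 and 1623 FPKM after PFA perfusion, 299 and 834 after PBS perfusion, 198 and 53.5 without perfusion and 701 and 795 after injury, with -3.85 (limma, SE 0.62, adjusted p = 3.9e-04). Rps21 fell by 3.67 (limma, adjusted p = 8.4e-05) and Rpl39 by 3.53 (adjusted p = 7.9e-05). For each of these 4 genes both unperfused libraries lay below every other library.

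At the other end, Rpl7a did not pass the unscaled test: it was at 444 and 456 FPKM in the PFA-perfused pair, 204 and 335 in the PBS-perfused pair, 533 and 342 in the unperfused pair and 1229 and 1262 in the injury-activated pair. Its unscaled difference was -0.08 (limma, SE 0.34, adjusted p = 0.85) and its scaled one 1.09 (limma, SE 0.29, adjusted p = 0.008). Rpl5, which carries 5S ribosomal RNA into the ribosome together with Rpl11, was at 1077 and 1009.6 FPKM in PFA-perfused cells, 673 and 675 in PBS-perfused, 759 and 824 in unperfused and 1240.4 and 1262 in injury-activated cells. It differed by -0.40 (limma, SE 0.28, adjusted p = 0.22) unscaled and 0.77 (limma, SE 0.25, adjusted p = 0.023) scaled. Its partner Rpl11 was at 209 and 92.4 FPKM in unperfused and 749.8 and 787 in injury-activated cells, beside 586 and 648 in PFA-perfused and 176 and 343 in PBS-perfused cells and fell by 2.14 unscaled (adjusted p = 0.0015) and 0.97 scaled (adjusted p = 0.044). Rpl3, near the peptidyl transferase centre, fell unscaled (-1.17, limma SE 0.32, adjusted p = 0.0081) and was at 0.01 (limma, SE 0.26, adjusted p = 0.99) scaled, where it did not pass the test.

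By role, all 4 stalk genes and all 8 exit tunnel genes tested were lower, as were 9 of 11 genes of the small subunit head, with 1 higher. Of the members whose products bind Mdm2, the ubiquitin ligase of p53, 6 of 8 were lower. Of the genes mutated in Diamond-Blackfan anaemia, a red cell aplasia of reduced ribosome supply, 15 of 16 were lower, among them Rps19, at 1509 and 1693 FPKM after PFA perfusion, 560.0 and 887 after PBS perfusion, 871 and 342 without perfusion and 1442 and 1549.6 after injury. Scaled, 1 of the stalk, 4 of the tunnel, 4 of the head, 4 of the Mdm2-binding and 13 of the anaemia genes were lower. Of all tested genes 56.3% were lower and 17.4% higher, and of the members 92.3% were lower. With scaling, 32.6% of all genes and 57.7% of the members were lower. Whether a role differed from the other members was not tested.

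Unperfused and PBS-perfused cells differ by perfusion and genotype, with neither fixed. Of the 78 members, 42 were lower and 1 higher in unperfused cells, with a median log2 fold change of -1.07 beside -0.36 over all tested genes. Of all tested genes 36.5% were lower and 13.1% higher (limma, Benjamini-Hochberg). Libraries did not overlap for 50 members below and 3 above, against 52.1% and 20.0% of all genes. After trimmed mean scaling 17 members were lower and 4 higher, with a median of -0.51 beside 0.00, against 22.9% and 24.2%. The scaled share of lower members was 21.8%, close to that of all genes, and the share of higher members was 5.13%, below it. The 4 higher members were Rps25, Rpl7a, Rpl41 and Rpl5. The unscaled count of lower members was 13 without PBS-perfused replicate 2, 12 without unperfused replicate 2 and 17 with no filter on low values. With another library left out it rose. The number higher was 2 with PBS-perfused replicate 2 left out, and 3 with unperfused replicate 2 left out.

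The members furthest below PBS-perfused cells, after Rps27, were Rps2 (-2.92, limma SE 0.47, adjusted p = 8.9e-04), Rpl37a (-2.63, limma SE 0.52, adjusted p = 0.0027), Rps27l (-2.36, limma SE 0.30, adjusted p = 2.3e-04) and Rpl36 (-2.26, limma SE 0.62, adjusted p = 0.014). Rps27l is a paralog of Rps27 that p53 induces. It was at 786 and 668 FPKM in the PFA-perfused pair, 571 and 518 in the PBS-perfused pair, 134 and 82.5 in the unperfused pair and 665 and 699 in the injury-activated pair. Its 4 perfused values and its 2 injury-activated values all lay above the unperfused pair. Rpl38, known for its part in the translation of Hox mRNAs, was at 377 and 406 FPKM in PFA-perfused cells, 183 and 240.0 in PBS-perfused, 65.2 and 29.6 in unperfused and 171 and 188 in injury-activated cells and differed by -2.22 (limma, SE 0.35, adjusted p = 8.4e-04).

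Injury-activated against unperfused cells asks what changes when the cells are activated by injury, with wild type mice and no perfusion on both sides. Of the 78 members 75 were higher and 1, Rps25, was lower, with a median log2 fold change of 2.28 beside 0.17 over all tested genes. Of all tested genes 40.8% were higher and 29.3% lower (limma, Benjamini-Hochberg). The libraries did not overlap for 77 members above and 1 below, against 49.3% and 39.8% of all genes. The scaled counts were 73 higher and 1 lower, with a median of 2.08 beside 0.04, against 39.1% and 33.9%. Of all 5 comparisons this count moved least with the scaling.

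The largest rises were those of Rpl37a (3.57, limma SE 0.52, adjusted p = 2.1e-04), Rps21 (3.43, limma SE 0.46, adjusted p = 1.4e-04), Rpl39 (3.12, limma SE 0.44, adjusted p = 1.8e-04), Rps20 (3.09, limma SE 0.45, adjusted p = 2.4e-04) and Rpl18 (3.02, limma SE 0.45, adjusted p = 2.6e-04). Rpl18 was at 168 and 76 FPKM in unperfused and 896 and 961 in injury-activated cells, beside 782 and 933 in PFA-perfused and 279.6 and 600.5 in PBS-perfused cells. Rps20 was at 857 and 1193 FPKM after PFA perfusion, 188 and 511 after PBS perfusion, 145 and 98.5 without perfusion and 996 and 1066 after injury. Both unperfused libraries were below every other library for these 5 genes, and all comparisons with unperfused cells use the same 2 libraries.

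Rplp0, Rplp1 and Rplp2 of the stalk rose by 2.06, 2.08 and 2.30 on the log2 scale (limma, adjusted p = 0.0036, 0.002 and 6.6e-04). Rplp0 was at 7462 and 8397 FPKM in the PFA-perfused pair, 4017 and 6294 in the PBS-perfused pair, 2913 and 1372 in the unperfused pair and 8149.5 and 8541 in the injury-activated pair. Rps6, the small subunit target of the mTORC1-dependent S6 kinases, was at 178 and 176 FPKM in PFA-perfused cells, 95.8 and 130.3 in PBS-perfused, 73.7 and 37.0 in unperfused and 183 and 195 in injury-activated cells and rose by 1.83 (limma, SE 0.33, adjusted p = 8.1e-04). Rpl10, which joins the large subunit late in its assembly, rose by 2.07 (limma, SE 0.40, adjusted p = 0.0013). All 4 stalk genes, all 8 exit tunnel genes and all 4 genes of mRNA entry and decoding tested were higher, as were 7 of 8 genes of Mdm2 binding and 15 of 16 anaemia genes. Scaled, these counts were 4, 8, 4, 6 and 15. Of all tested genes 40.8% were higher, and of the members 96.2%. With scaling the shares were 39.1% and 93.6%. Whether a role differed from the other members was not tested. Rpl5 (0.66, limma SE 0.28, adjusted p = 0.058) and Rpl13 (0.95, limma SE 0.45, adjusted p = 0.085) did not pass the test. Rps25 fell by 0.96 (limma, SE 0.31, adjusted p = 0.022). With no filter on low values it did not pass the threshold, and no member was lower. The same holds with injury-activated replicate 1 or 2 left out.

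Injury-activated against PFA-perfused cells sets activated cells beside cells fixed in place. The unscaled levels were close: 6 members were higher and 5 lower of 78, with a median log2 fold change of 0.08 beside -0.48 over all tested genes. Of all tested genes 26.1% were higher and 47.3% lower (limma, Benjamini-Hochberg). Libraries did not overlap for 38 members above and 30 below, against 34.5% and 56.7% of all genes. Once scaled by the trimmed mean, 45 members were higher and 1, Rps27, was lower, with a median of 1.03 beside 0.22, against 42.5% and 31.1%. With Rn45s and Malat1 left out and the libraries rescaled the median was -0.27, and with quantile normalization it was -0.45, with 24 lower and 7 higher, against 34.2% and 35.0% of all genes. The direction of the whole family in this comparison therefore depended on the scaling. Fitting these 2 groups alone gave 29 higher and 21 lower members. Leaving out single libraries moved the number of lower members to 3 and 1 with PFA-perfused replicate 1 or 2 left out, 8 each with unperfused replicate 1 or 2 left out, and 2 and 1 with injury-activated replicate 1 or 2 left out, and that of higher members to 10 each with unperfused replicate 1 or 2 left out, and 3 with injury-activated replicate 2 left out.

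Rpl41, the shortest ribosomal protein, rose most: it was at 261 and 90.9 FPKM in unperfused and 985 and 1084 in injury-activated cells, beside 195 and 228 in PFA-perfused and 72.5 and 120.2 in PBS-perfused cells, with 2.29 (limma, SE 0.46, adjusted p = 0.0015). Rpl29 was at 359 and 399 FPKM after PFA perfusion, 136 and 227 after PBS perfusion, 188 and 96.1 without perfusion and 1037 and 1115 after injury, with 1.51 (limma, SE 0.37, adjusted p = 0.0051). Rpl7a (1.47, limma SE 0.34, adjusted p = 0.0034), Rpl3 (1.24, limma SE 0.32, adjusted p = 0.006), Rpsa (1.19, limma SE 0.35, adjusted p = 0.012) and Rpl7 (1.00, limma SE 0.34, adjusted p = 0.026) were the other higher members. Rps2 (-1.61, limma SE 0.47, adjusted p = 0.012), Rpl13 (-1.46, limma SE 0.45, adjusted p = 0.015), Rpl38 (-1.12, limma SE 0.35, adjusted p = 0.017) and Rpl34 (-0.82, limma SE 0.29, adjusted p = 0.029) were lower, beside Rps27. Under trimmed mean scaling the 6 higher members were still called, and of the 5 lower ones Rps27 alone was, with Rpl34 turned to 0.14.

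**Figure D2:**
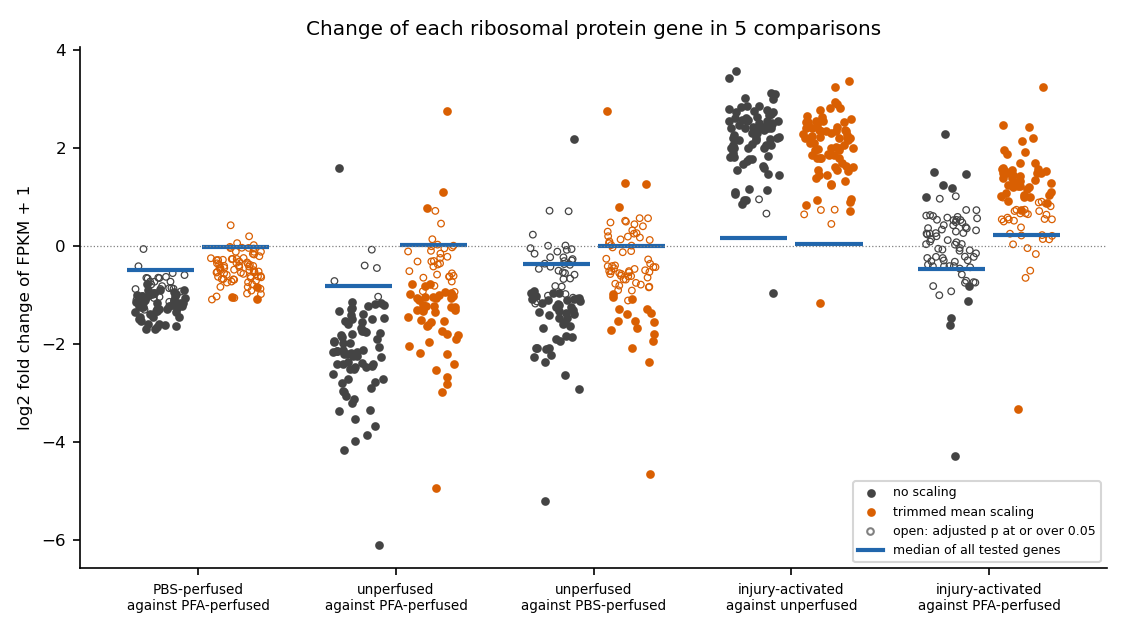
Log2 fold change of FPKM + 1 of each of the 78 tested ribosomal protein genes in 5 comparisons, without scaling (grey) and with trimmed mean scaling (orange), filled where the Benjamini-Hochberg adjusted p was under 0.05; the blue bar is the median of all tested genes. Injury-activated cells lie above unperfused cells under both scalings, with medians of 2.28 and 2.08, while in the comparison with PFA-perfused cells the median moves from 0.08 to 1.03.

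A fit on levels relative to the family median of each library removes any scaling between libraries and asks which members departed from the others. In PBS-perfused against PFA-perfused cells no member passed the limma test with Benjamini-Hochberg adjustment, of 78 tested, and 0 had an unadjusted p under 0.05. Of all genes 26.0% were called in this fit. In unperfused against PFA-perfused cells 24 members departed, against 63.6% of all genes, in unperfused against PBS-perfused cells 20 (38.6%), in injury-activated against unperfused cells 15 (76.9%) and in injury-activated against PFA-perfused cells 11 (49.9%). The shares of members were below those of all genes in each comparison, in levels centred on the members themselves. In this fit limma set the spread from all genes of like level (infinite prior degrees of freedom), so a gene's own replicate spread does not enter its p. Single libraries moved these counts. In PBS-perfused against PFA-perfused cells the count was 1 and 5 with PBS-perfused replicate 1 or 2 left out. In unperfused against PFA-perfused cells the count was 10 and 11 with PFA-perfused replicate 1 or 2 left out, 38 with PBS-perfused replicate 1 left out, 13 with unperfused replicate 2 left out, and 15 each with injury-activated replicate 1 or 2 left out. In unperfused against PBS-perfused cells the count was 13 each with PFA-perfused replicate 1 or 2 left out, 32 with PBS-perfused replicate 1 left out, 7 with unperfused replicate 2 left out, and 10 each with injury-activated replicate 1 or 2 left out. In injury-activated against unperfused cells the count was 25 each with PBS-perfused replicate 1 or 2 left out, and 9 each with injury-activated replicate 1 or 2 left out. In injury-activated against PFA-perfused cells the count was 5 and 6 with PFA-perfused replicate 1 or 2 left out, 24 each with PBS-perfused replicate 1 or 2 left out, 17 with unperfused replicate 2 left out, and 4 each with injury-activated replicate 1 or 2 left out.

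Rps25 stood furthest above the family. Its log2 level relative to the family median was -0.03 and -0.01 in the PFA-perfused pair, 0.48 and 0.29 in the PBS-perfused pair, 3.41 and 4.37 in the unperfused pair and 0.54 and 0.54 in the injury-activated pair. The unperfused pair exceeded all others, by 3.91 (limma, SE 0.37, adjusted p = 4.6e-24) over PFA-perfused cells. Rpl41 was at -1.88 and -1.68 in the PFA-perfused pair, -1.90 and -2.0 in the PBS-perfused pair, 0.36 and -0.17 in the unperfused pair and 0.42 and 0.46 in the injury-activated pair, and Rpl7a at -0.70 and -0.68 in the PFA-perfused pair, -0.42 and -0.53 in the PBS-perfused pair, 1.38 and 1.73 in the unperfused pair and 0.74 and 0.68 in the injury-activated pair. For both, the 4 perfused libraries lay below the 4 others. Rpl5 was at 0.58 and 0.46 in the PFA-perfused pair, 1.3 and 0.48 in the PBS-perfused pair, 1.89 and 2.99 in the unperfused pair and 0.75 and 0.68 in the injury-activated pair, highest in the unperfused pair, with 1.92 (limma, SE 0.38, adjusted p = 1.4e-06).

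Rps27 stood furthest below, by -3.77 (limma, SE 0.44, adjusted p = 2.2e-16) in unperfused and -4.35 (limma, SE 0.44, adjusted p = 5.1e-21) in injury-activated against PFA-perfused cells. Rps2 was at 1.92 and 2.22 in the PFA-perfused pair, 1.67 and 2.34 in the PBS-perfused pair, 0.17 and 0.66 in the unperfused pair and 0.47 and 0.32 in the injury-activated pair. Its relative level differed by -1.66 (limma, SE 0.37, adjusted p = 2.9e-05) and -1.68 (limma, SE 0.37, adjusted p = 3.6e-05) in the same comparisons. Rpl37a was -1.84 (limma, SE 0.39, adjusted p = 1.1e-05) in unperfused against PFA-perfused cells and 1.19 (limma, SE 0.39, adjusted p = 0.0038) in injury-activated against unperfused cells, and Rpl36 was -1.53 (limma, SE 0.41, adjusted p = 4.8e-04) in the first of these. With GC content and transcript length removed, the departures of Rps2, Rpl36 and Rps21 in unperfused against PFA-perfused cells and those of Rpl37a and Rps21 in the injury comparison did not pass the test, and that of Rpl36 in injury-activated against PFA-perfused cells turned to 0.13.

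Relative to the family, the levels of 35 of the 76 abundant members did not overlap between the 4 perfused libraries (Pax7-nGFP) and the 4 not perfused ones (wild type), a split chosen after the data had been seen. Of these, 11 were higher in all perfused libraries (14.5%, against 1.89% of all tested genes) and 24 lower (31.6%, against 10.7%). The levels are centred on the members themselves, so the shares over all genes are not a like background. In these levels the median of all tested genes was 1.51 in unperfused and -0.55 in injury-activated against PFA-perfused cells. Whether the members split more often than other genes was not tested. Perfusion and genotype cannot be told apart in this split. The design text names a second sequencer beside the one given in the labels of all libraries, and which libraries ran on it is not given in the sources used here.

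**Figure D3:**
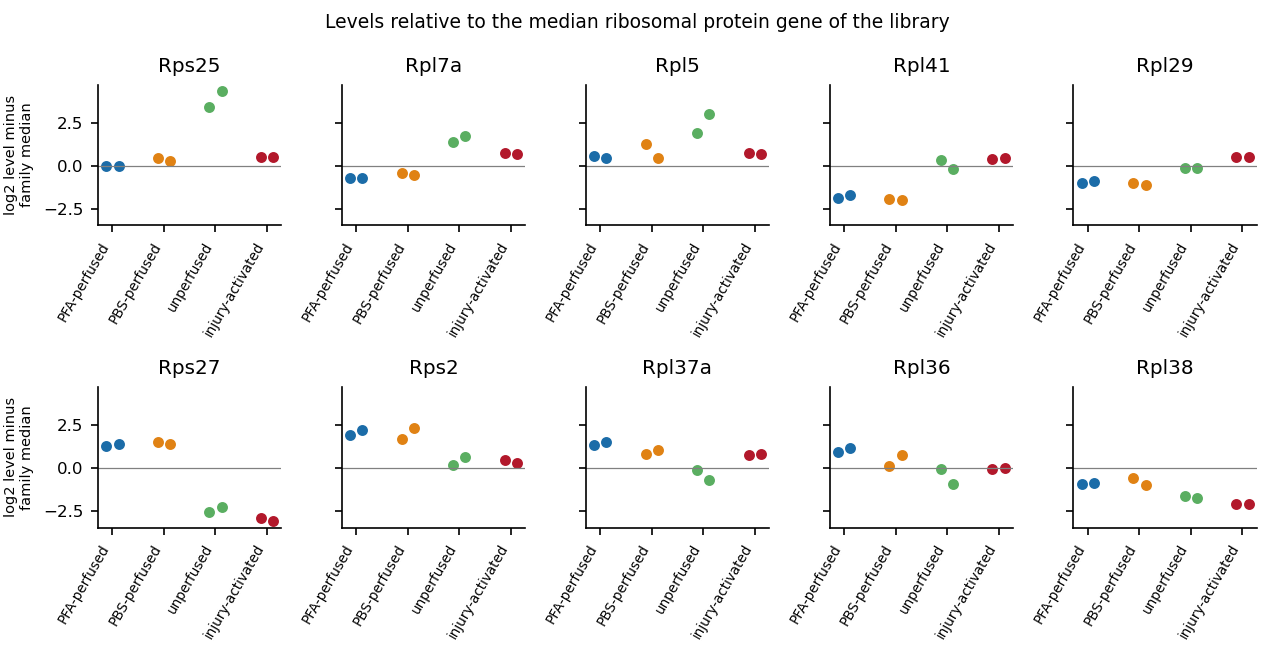
Log2 level of 10 members minus the median of the abundant ribosomal protein genes of the same library, 2 points a group and no error bar. Rps25 and Rpl5 are highest in the unperfused pair. Rpl41, Rpl7a, Rpl29 and, by a gap of 0.06, Rps25 are lower in the 4 perfused than in the 4 other libraries. Rps27, Rps2, Rpl38 and, by a gap of 0.12, Rpl36 are higher in the perfused ones. Rpl5 and Rpl37a overlap.

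Rps27, a zinc finger protein of the small subunit, had the largest fall of all members in unperfused against PFA-perfused cells. It was at 1783 and 1976 FPKM in the PFA-perfused pair, 788 and 1295 in the PBS-perfused pair, 34.7 and 20.3 in the unperfused pair and 99.5 and 91.9 in the injury-activated pair, a difference of -6.09 (limma, SE 0.34, adjusted p = 1.2e-06). Both wild type groups lay below all perfused libraries. The table also lists, among copies chosen here after their values were seen, Rps27rt, a retrotransposed copy, at 1685 and 1808 FPKM in PFA-perfused cells, 573 and 1203 in PBS-perfused, 433 and 199 in unperfused and 807 and 889 in injury-activated cells. In GENCODE M21 the coding sequences of Rps27 and Rps27rt are identical over 252 bases, so reads from the coding part cannot be told apart, and the values depend on how the reads were assigned.

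Of the sum of both genes, Rps27 took 51.4% and 52.2% in the PFA-perfused pair, 57.9% and 51.8% in the PBS-perfused pair, 7.41% and 9.25% in the unperfused pair and 11.0% and 9.37% in the injury-activated pair. The split was near even in every perfused library and strongly towards Rps27rt in the 4 others. Summed after this had been seen, both genes gave 3468 and 3784 in the PFA-perfused pair, 1361 and 2499 in the PBS-perfused pair, 468 and 219.7 in the unperfused pair and 907 and 981 in the injury-activated pair, in FPKM. The summed fall was -3.49 (limma, SE 0.44, adjusted p = 8.4e-05) in unperfused and -1.94 (limma, SE 0.44, adjusted p = 0.0031) in injury-activated against PFA-perfused cells, smaller than that of Rps27 alone. In PBS-perfused against PFA-perfused cells the sum did not pass the test, at -0.97 (limma, SE 0.44, adjusted p = 0.079). The sum stood at 4.81 and 5.17 in the PFA-perfused pair, 4.98 and 5.17 in the PBS-perfused pair, 2.30 and 2.14 in the unperfused pair and 1.23 and 1.25 in the injury-activated pair, as a multiple of the family median, so it still separated the perfused from the other libraries.

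**Figure D4:**
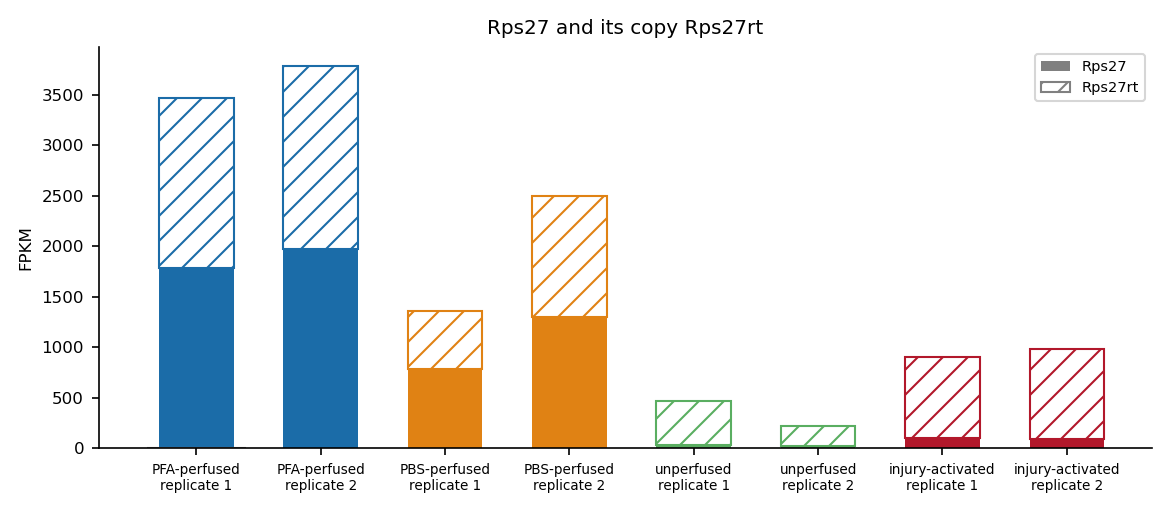
FPKM of Rps27 (filled) and of its copy Rps27rt (hatched), stacked, in each of the 8 libraries. The part given to Rps27 is 51.4% to 57.9% of the stack in the 4 perfused libraries and 7.41% to 11.0% in the 4 others.

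Rps27l can be told apart from Rps27 by its sequence. The coding sequences have 60 mismatches over 252 bases, an identity of 76.2%. They are shown from the start codon, from GENCODE M21 on GRCm38.p6, with the mismatched bases in capitals.
Rps27: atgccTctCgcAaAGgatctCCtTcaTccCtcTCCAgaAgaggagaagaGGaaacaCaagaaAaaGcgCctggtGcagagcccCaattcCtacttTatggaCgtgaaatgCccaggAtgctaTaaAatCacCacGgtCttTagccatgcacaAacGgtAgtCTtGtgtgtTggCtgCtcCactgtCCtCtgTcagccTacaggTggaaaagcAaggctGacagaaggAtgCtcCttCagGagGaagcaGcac
Rps27l: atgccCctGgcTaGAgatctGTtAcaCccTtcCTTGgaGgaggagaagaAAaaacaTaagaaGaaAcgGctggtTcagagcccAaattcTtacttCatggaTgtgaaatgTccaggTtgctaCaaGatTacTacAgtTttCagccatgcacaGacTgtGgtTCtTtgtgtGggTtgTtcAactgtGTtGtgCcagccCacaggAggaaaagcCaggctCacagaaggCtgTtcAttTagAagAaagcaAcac
Rps27l, unlike Rps27, was not called between injury-activated and PFA-perfused cells, and the difference between the paralogs was not tested. It was at 665 and 699 FPKM there and at 786 and 668 in PFA-perfused cells, with -0.09 (limma, SE 0.30, adjusted p = 0.8).

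Other copies were measured too. GENCODE M21 names 293 pseudogenes after members, for 55 of the 81 genes, and reads shared with them make levels of single members uncertain. Rpl34-ps1, one of 2 shown here for values already seen, was at 306 and 159.8 FPKM in unperfused and 255 and 279.6 in injury-activated cells, beside 34.0 and 32.2 in PFA-perfused and 14.6 and 18.2 in PBS-perfused cells, higher in all 4 libraries without perfusion. Rpl34 itself was at 658 and 707 FPKM after PFA perfusion, 335 and 477 after PBS perfusion, 123 and 86.5 without perfusion and 365 and 406 after injury. Rpl14-ps1, at 140.4 and 165 FPKM in the PFA-perfused pair, 39.1 and 87.0 in the PBS-perfused pair, 16.1 and 10.6 in the unperfused pair and 41.3 and 42.7 in the injury-activated pair, was highest in the PFA-perfused pair. Rpl26, an exit tunnel protein, was listed at 5.09 and 4.90 FPKM in PFA-perfused cells, 4.42 and 5.08 in PBS-perfused, 0.630 and 0.0973 in unperfused and 6.13 and 5.99 in injury-activated cells, the lowest of the large subunit genes that passed the filter.

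The paralogs known from other tissues were low. The testis gene Rpl10l was at 0 in every library, and Rpl39l, also of testis, was above 0 in the injury-activated pair alone, at 0.0445 and 0.0296 FPKM. Rpl3l, the form of Rpl3 in mature striated muscle, was at 0.701 and 0.927 FPKM in unperfused and 0.128 and 0.0669 in injury-activated cells, beside 0.671 and 0 in PFA-perfused and 0.488 and 1.18 in PBS-perfused cells. Rpl3 was at 1072 and 1143 FPKM after PFA perfusion, 481 and 629 after PBS perfusion, 589 and 412 without perfusion and 2561 and 2669 after injury, so the common form was by far the higher in all libraries. Rps4l was at 11.9 and 8.40 FPKM in the PFA-perfused pair, 3.53 and 1.86 in the PBS-perfused pair, 4.07 and 0.852 in the unperfused pair and 25.3 and 17.8 in the injury-activated pair, and rose by 2.86 (limma, SE 0.44, adjusted p = 3.4e-04) in injury-activated against unperfused cells. It stood at 0.456% to 3.77% of Rps4x.

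Members are short transcripts, with a median of 886 bases (345 to 5179) for the GENCODE M21 transcript used for each gene, against 2926.5 over the tested genes. The change rose weakly with length over the 78 members in unperfused against PFA-perfused cells (Pearson r = 0.30) and in unperfused against PBS-perfused cells (r = 0.32). The rise was not even. Members under 1000, from 1000 to 2000 and over 2000 bases had medians of -2.24, -1.73 and -2.62 against PFA-perfused cells. Against PBS-perfused cells the medians were -1.12, -0.55 and -1.37, so the median of the 5 longest members was lowest in both. Rpl5, at 2045 bases one of these 5, was nevertheless among the 5 members of highest fold change in both. In the other comparisons r was 0.02 (PBS-perfused against PFA-perfused), -0.13 (injury-activated against unperfused) and 0.26 (injury-activated against PFA-perfused). These are descriptions over genes of the same libraries. The 48 members under 1000 bases with a mean of at least 10 FPKM had median log2 fold changes of -1.12, -2.25, -1.12, 2.35 and -0.07, in the order in which the comparisons were described. The 394 other genes of that kind had -0.93, -1.99, -1.11, 1.73 and -0.18. The medians of short, abundant genes outside the family thus had the sign of the members' medians in each comparison. With GC content and length removed, the median of all tested members was -1.39 in unperfused against PFA-perfused cells and 1.59 in injury-activated against unperfused cells. The medians over all tested genes in that fit were -0.82 and 0.24, so the members' median lay 0.57 below and 1.35 above that of all genes, against 1.33 and 2.12 with GC content and length kept.

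**Figure D5:**
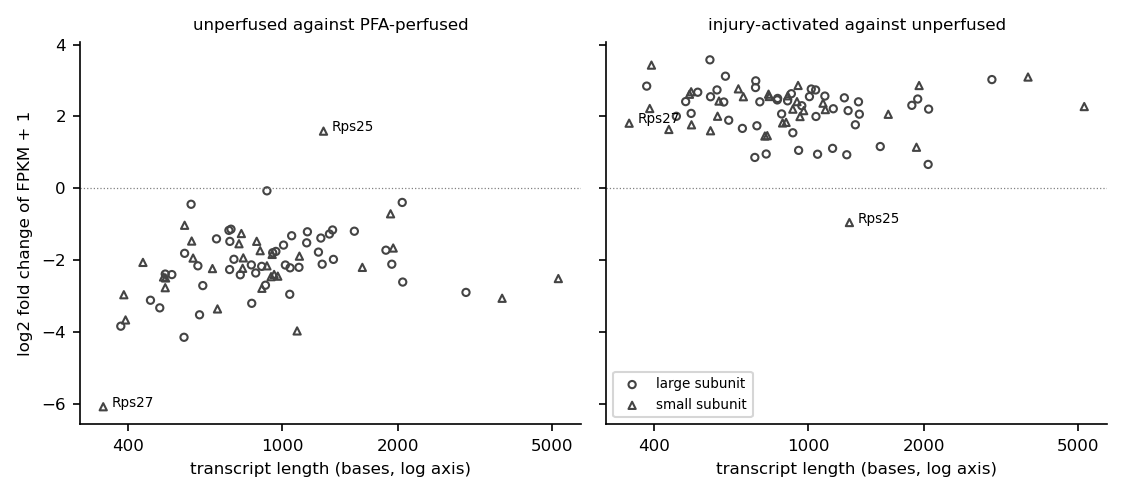
Log2 fold change of FPKM + 1 of the 78 tested members against transcript length (bases, log axis), circles for the large and triangles for the small subunit. In unperfused against PFA-perfused cells the values rise weakly with length (r = 0.30), with Rps27 lowest and Rps25 highest. The 5 members over 2000 bases nevertheless have a low median there, of -2.62. In injury-activated against unperfused cells r is -0.13.

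Ribosomal proteins whose symbols fall outside the rule, such as Fau, Gnb2l1 (Rack1) and Rps3a1, and ribosome-like proteins were read beside the members. The counts of these and the following lists are to be read against the shares over all tested genes. Of all genes 46.2% were lower and 17.8% higher in PBS-perfused and 56.3% and 17.4% in unperfused against PFA-perfused cells, and 29.3% and 40.8% in injury-activated against unperfused cells. After trimmed mean scaling the shares were 26.4% and 28.1%, 32.6% and 35.3%, and 33.9% and 39.1%. Of the 9 such genes tested, 5 were lower and 2 higher in unperfused against PFA-perfused cells, and 9 were higher and 0 lower in injury-activated against unperfused cells (8 and 0 with trimmed mean scaling). Rps3a1 was at 1258 and 1378 FPKM in PFA-perfused cells, 474 and 911 in PBS-perfused, 599 and 475 in unperfused and 2032 and 2032 in injury-activated cells.

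Translation factors and other mRNAs known to carry a TOP motif were called in both directions. Of 24 tested, 8 were lower and 2 higher in PBS-perfused and 12 lower and 3 higher in unperfused against PFA-perfused cells, and 17 were higher and 3 lower in injury-activated against unperfused cells. With trimmed mean scaling the second of these became 4 lower and 11 higher. The medians were -0.38, -0.75 and 1.96, against -0.50, -0.81 and 0.17 for all tested genes and -1.09, -2.14 and 2.28 for the members. The unscaled falls of this list were thus near those of all genes. Eef1a1, the elongation factor that brings transfer RNA to the ribosome, was at 1624 and 1277 FPKM in unperfused and 3948 and 4036 in injury-activated cells, beside 3417 and 3969.6 in PFA-perfused and 1643 and 2359.9 in PBS-perfused cells. Npm1, a nucleolar chaperone, was at 558 and 584 FPKM after PFA perfusion, 519 and 716 after PBS perfusion, 1013 and 421 without perfusion and 6026 and 6199 after injury and rose by 3.22 (limma, SE 0.43, adjusted p = 1.2e-04) after injury. Eif3f, a subunit of initiation factor 3, was at 245 and 255 FPKM in the PFA-perfused pair, 77.5 and 109 in the PBS-perfused pair, 21.4 and 14.9 in the unperfused pair and 11.8 and 9.83 in the injury-activated pair and differed between injury-activated and unperfused cells by -0.68 (limma, SE 0.26, adjusted p = 0.04).

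Importins and chaperones that bring ribosomal proteins to the nucleus had medians of 0.36, 0.28 and 0.84 in the same 3 comparisons. Of 16 tested, 6 were higher and 0 lower in PBS-perfused and 5 higher and 2 lower in unperfused against PFA-perfused cells, and 10 higher and 1 lower in injury-activated against unperfused cells. With trimmed mean scaling these were 10 and 0, 14 and 0, and 8 and 2. Ipo7, an importin of ribosomal proteins, was at 3.29 and 2.67 FPKM in PFA-perfused cells, 11.4 and 9.17 in PBS-perfused, 28.2 and 15.3 in unperfused and 85.2 and 90.3 in injury-activated cells. Genes of TOP mRNA control by mTORC1 had no common direction, with 12 of 22 lower and 8 higher in unperfused against PFA-perfused cells and 7 lower and 6 higher after injury (5 and 10, and 8 and 5, with trimmed mean scaling). Larp1, which binds the cap of TOP mRNAs, was at 50.4 and 47.9 FPKM in unperfused and 37.7 and 40.4 in injury-activated cells, beside 8.17 and 10.6 in PFA-perfused and 5.66 and 6.89 in PBS-perfused cells, and its relative Larp4 at 5.71 and 6.11 FPKM after PFA perfusion, 9.93 and 11.7 after PBS perfusion, 142 and 153 without perfusion and 60.3 and 60.9 after injury. Both were lowest in the 4 perfused libraries.

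Of 10 genes of ribosome rescue, 4 were lower and 2 higher in unperfused against PFA-perfused cells, where 56.3% and 17.4% of all genes were, and 3 higher and 2 lower in injury-activated against unperfused cells. With trimmed mean scaling the first pair was 1 and 6 and the second 3 and 4. Of 12 transcription factors tied to ribosomal protein genes, 6 were higher and 1 lower in the first of these comparisons (9 and 1 with trimmed mean scaling). Among them Myc, which drives ribosome production, was at 9.33 and 8.04 FPKM in the PFA-perfused pair, 124 and 134 in the PBS-perfused pair, 96.4 and 102 in the unperfused pair and 11.9 and 9.61 in the injury-activated pair. It was low in both PFA-perfused and injury-activated cells, the groups with the highest members. Of 7 genes of the 5S particle and p53 pathway, 5 were lower and 2 higher in unperfused against PFA-perfused cells (2 and 2 with trimmed mean scaling). The p53 target Cdkn1a was at 21.2 and 36.6 FPKM in PFA-perfused cells, 878 and 496 in PBS-perfused, 268 and 328 in unperfused and 162 and 153 in injury-activated cells, with 4.52 (limma, SE 0.35, adjusted p = 2.3e-05) in PBS-perfused against PFA-perfused cells. Fewer cells of a type and less RNA per cell cannot be told apart in these bulk libraries.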

How the data were processed

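RNA of sorted mouse muscle stem cells was sequenced in 8 libraries, 2 in each of 4 groups, from SMART-Seq v4 cDNA per the labels' protocols. The authors deposited 1 table of values per gene symbol and library; its unit, FPKM, was read from the values and from StringTie 1.3.3, which the submitters' processing notes list with STAR 2.5.3a, R 3.4.1 and build mm9. No counts are in the table, so depth is unknown and no count test was run.

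Groups follow the labels. Genes that reached 1 FPKM in 2 or more libraries were tested on log2(FPKM + 1) with limma 3.58.1 in R 4.3.3 (variance trend, all groups in 1 fit, two-sided), with Benjamini-Hochberg adjustment over all tested genes and a threshold of 0.05. Values were used as deposited, and again after scaling by a mean of log ratios with 30% of ratios and 5% of levels trimmed at each end. Members relative to the family were fitted after subtracting each library's median log2 level of the 76 abundant members. Fold changes on this scale understate changes of low genes. The members, gene lists and tests were chosen with earlier results of these data known. The genes named are a fixed set of 26 members, the 5 members of lowest and of highest fold change in each comparison, the same among those apart from the family, and up to 5 genes of each pathway list. Rpl7, Rpl34, Rpl14, Rpl35a, Rps27rt and the 2 pseudogenes were added after values were seen. Lengths, GC content and coding sequences came from GENCODE M21, 1 transcript a gene, with the principal and then the longest form preferred, and start sites from RefSeq on GRCm38.p6, neither of which is the build of the table; no coordinate was joined to it. The alternatives were a replicate block, the 2 groups alone, no filter and a filter of 5 FPKM, a pseudocount of 0.1, trimmed mean and quantile scaling, rescaling without Rn45s and Malat1, removal of GC content and length, and leaving out each library. The ratio without Rps25 and Rps27, the sum of Rps27 and Rps27rt, and the split by perfusion were added after seeing the data. The fit was tested on simulated data with known changes.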

Additional observations from a re-analysis of the deposited data

How the results depend on the processing

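Counts of members that were lower, higher or apart from the family moved as follows, and the causes were not tested. In PBS-perfused against PFA-perfused cells, 10 were lower with no filter on low values, 3 with trimmed mean scaling, 75 with quantile normalization and 29 with GC content and length removed (37.2%, below the 46.3% of all genes), which also set 3 apart. In unperfused against PFA-perfused cells trimmed mean scaling gave 45 lower and 3 higher and put Rpl5 (0.77) and Rpl7a (1.09) above 0 on the log2 scale and Rpl3 (0.0051) at about 0; GC and length removal set 42 apart. In unperfused against PBS-perfused cells 17 were lower with no filter, 17 lower and 4 higher with trimmed mean scaling, 2 higher with quantile normalization and 26 lower (33.3%, below the 38.1% of all genes) and 3 higher with GC and length removed, and 2 stood apart with these 2 groups alone. In injury-activated against unperfused cells no filter gave 0 lower and GC and length removal set 36 apart. In injury-activated against PFA-perfused cells the lower members were 21 with the 2 groups alone, 1 with no filter, 1 with trimmed mean scaling, 24 with quantile normalization, 9 without Rn45s and Malat1 and 8 with GC and length removed. The higher ones were 29 with the 2 groups alone and 45 with trimmed mean scaling, and 50 stood apart with the 2 groups alone. The median turned to -0.45, -0.27 and -0.072 with quantile normalization, without Rn45s and Malat1 and with GC and length removed. Rpl4 (0.92) and Rps27l (0.87) turned positive with trimmed mean scaling, and Rpl36 apart from the family (0.13) with GC and length removed. Leaving out 1 library each gave, in the order in which the comparisons were described, 5 to 70, 66 to 75, 12 to 54, 0 to 1 and 1 to 8 lower, 0, 1, 1 to 3, 65 to 76 and 3 to 10 higher, and 0 to 5, 10 to 38, 7 to 32, 9 to 25 and 4 to 24 apart. With the replicate block, 46, 72, 39, 1 and 5 members were lower, 0, 1, 1, 74 and 7 higher and 0, 19, 15, 13 and 9 apart, and of the named genes 8 calls were lost and 1 gained. Same-numbered libraries correlated in their deviations at -0.05 to 0.12, so the numbers were not taken to pair libraries.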
